A study of Caenorhabditis elegans with 2 samples.

Results

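The snoRNA genes near which FKH-3, tagged with GFP, had a listed ChIP-seq region numbered 137 of the 346 snoRNA genes of *Caenorhabditis elegans* (39.6%, exact Clopper-Pearson 95% interval 34.4 to 45.0%). A gene was counted where a summit, the highest point of a region in the list called on the pooled replicates, lay within 100 bp of the gene body. The members were therefore chosen by the pooled list, which holds 30000 regions, and their membership is a description and no finding. By the same rule, 68.1% of tRNA genes, 54.5% of protein-coding genes, 38.0% of snRNA genes and 24.4% of ncRNA genes were counted. The shares of miRNA and piRNA genes were 17.6% and 1.07%. The window counted grows with the length of the gene, so the shares of types that differ in length are not like for like. The chromatin came from whole, mixed-sex young adult worms of strain OP594, 63 h after synchronisation, so it holds the DNA of many cell types. The strain carries unc-119(tm4063) III and the integrated transgene wgIs594, which gives FKH-3 a C-terminal GFP-FLAG tag. The immunoprecipitation used an antibody to GFP, and the 2 biological replicates form 1 group. No untagged or input sample was analysed here, and the lists hold no read counts, so the depth is unknown. Shares are given with exact binomial intervals that cover counting error only, and each replicate's own list is set beside the pooled one.

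FKH-3 is a transcription factor of the forkhead family. Small nucleolar RNAs guide chemical changes in ribosomal RNA: box C/D snoRNAs guide methylation of the ribose, and box H/ACA snoRNAs guide the conversion of uridine to pseudouridine. In vertebrates most snoRNAs are cut out of introns of host transcripts and have no promoter of their own. Others are transcribed independently, either by RNA polymerase II or, as for yeast SNR52, by RNA polymerase III from an A box and a B box, the internal promoter elements that define tRNA genes. The small nuclear RNA genes use another upstream element, the proximal sequence element (PSE). A run of T on the coding strand ends transcription by RNA polymerase III. Of the members, 67 lay inside an intron of a protein-coding gene, 55 were intergenic and 15 overlapped a protein-coding exon.

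Many of the members with the highest signal carried an A box and a B box just before the annotated 5′ end. Here an A box is TGG, then A after 3 bases, then GG after 2 or 3 more bases, and a B box is GTTCNANNC starting 20 to 90 bases after the start of the A box, both on the strand of the gene. These words were chosen after the sequences of the members had been read, and a match is a description of letters. The following 8 stretches, from the RefSeq sequence of WBcel235 (ce11), show members with a pair, intronic and intergenic, from 100 bases before to 10 bases past the 5′ end of the gene, with the A box and the B box in capitals.
C51F7.3, chrV:12303608-12303717 (+ strand): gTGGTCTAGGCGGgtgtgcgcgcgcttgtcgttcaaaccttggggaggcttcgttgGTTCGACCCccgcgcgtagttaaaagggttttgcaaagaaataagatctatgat
W03C9.9, chrII:11960798-11960907 (+ strand): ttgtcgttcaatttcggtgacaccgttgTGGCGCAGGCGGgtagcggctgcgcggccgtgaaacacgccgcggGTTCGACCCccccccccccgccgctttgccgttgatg
T03F7.8, chrV:11314158-11314267 (+ strand): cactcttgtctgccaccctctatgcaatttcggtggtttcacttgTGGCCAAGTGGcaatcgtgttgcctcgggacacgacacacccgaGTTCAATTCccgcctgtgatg
F55A11.10, chrV:11782892-11783001 (+ strand): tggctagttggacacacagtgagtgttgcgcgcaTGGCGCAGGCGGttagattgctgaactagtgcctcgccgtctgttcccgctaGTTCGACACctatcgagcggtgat
Y75B12B.12, chrV:15191084-15191193 (- strand): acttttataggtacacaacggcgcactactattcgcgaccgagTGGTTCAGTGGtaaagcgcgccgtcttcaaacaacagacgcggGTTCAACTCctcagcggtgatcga
F32E10.10, chrIV:7574022-7574131 (+ strand): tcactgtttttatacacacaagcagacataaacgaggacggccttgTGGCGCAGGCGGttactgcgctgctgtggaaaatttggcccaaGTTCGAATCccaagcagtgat
C41C4.11, chrII:8107261-8107370 (- strand): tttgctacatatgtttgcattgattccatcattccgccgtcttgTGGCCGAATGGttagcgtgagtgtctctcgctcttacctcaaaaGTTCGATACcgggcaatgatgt
T24H7.6, chrII:6248617-6248726 (+ strand): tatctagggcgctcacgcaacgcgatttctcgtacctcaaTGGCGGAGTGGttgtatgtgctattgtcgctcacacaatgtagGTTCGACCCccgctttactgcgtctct
Over the 25 members with a pair, the A box started at a median of -58 and the B box at a median of -14 relative to the 5′ end. C51F7.3 had its A box farthest upstream, at -99. The neighbouring C51F7.4 shares that A box, which lies 10 bases inside its own annotated body. Its B box is another match, at +39 from its own 5′ end, which lies between the capitals of the C51F7.3 stretch and is left in lower case there. The pairs of these 2 members thus overlap and are not independent.

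A second word recurred at other members: AACC and, after 7 bases, TGTC, on the strand of the gene. It is called PSE-like here because 28.7% of the snRNA genes (37 of 129), which depend on a PSE, held it in the window from 250 bases before to 50 past the 5′ end, against 0.623% of 45932 genes that are neither snoRNA nor tRNA genes. The following 5 stretches show members with this word in capitals, in the same frame.
ZK994.7, chrV:8500479-8500588 (+ strand): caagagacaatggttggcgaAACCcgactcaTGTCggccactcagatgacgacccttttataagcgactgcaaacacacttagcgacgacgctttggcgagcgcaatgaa
Y53F4B.47, chrII:15025884-15025993 (- strand): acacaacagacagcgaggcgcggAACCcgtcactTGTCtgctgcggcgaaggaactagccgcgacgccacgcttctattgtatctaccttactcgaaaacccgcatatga
T26A8.6, chrIV:8428730-8428839 (- strand): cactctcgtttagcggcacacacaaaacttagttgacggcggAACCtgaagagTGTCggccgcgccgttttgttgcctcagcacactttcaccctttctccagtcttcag
F01D5.12, chrII:14018432-14018541 (- strand): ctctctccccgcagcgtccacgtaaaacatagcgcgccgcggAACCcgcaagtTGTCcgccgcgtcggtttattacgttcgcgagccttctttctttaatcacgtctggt
smy-2, chrIV:9511457-9511566 (- strand): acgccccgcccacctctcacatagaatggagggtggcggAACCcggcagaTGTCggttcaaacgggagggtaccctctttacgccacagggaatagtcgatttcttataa
The word started between -80 and -54 at all 21 members that held it, with a median of -59. No member held both the pair and the PSE-like word.

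Members with a pair had the best median rank in the pooled list. The authors gave every region a signal score on an unstated scale, and it is used here only as a rank, with rank 1 the highest of the 30000 regions of a list. The 25 members with a pair had a median pooled rank of 74, the 21 members with the PSE-like word a median of 1188, and the 91 members with neither a median of 5285. The authors' list of regions that passed the irreproducible discovery rate (IDR), a procedure that compares replicates, holds 441 regions, which are the 441 highest of the pooled list. An IDR summit is thus a cut on pooled rank here and does not mean that each replicate listed the region. At 4 IDR members the replicate 1 list had no summit. An IDR summit lay at 21 of the 25 members with a pair (84.0%, 63.9 to 95.5%), at 9 of 21 with the PSE-like word (42.9%, 21.8 to 66%) and at 23 of 91 with neither (25.3%, 16.7 to 35.5%). Among members with an IDR summit, the median pooled ranks were 70 with a pair, 177 with the PSE-like word and 79 with neither. Genes with neither lack a full pair, but most of the 23 with an IDR summit hold an A box or a B box alone, such as T06C12.16 and Y23H5B.10. Over all 53 IDR members, an A box was in 34 and a B box in 25, against 21 with the pair. The group with neither is thus not a group without the boxes. Counted over all snoRNA genes, 25 of the 27 with a pair were members and 21 had an IDR summit. Of the 29 with the PSE-like word, 21 were members and 9 had an IDR summit, and of the 290 with neither, 91 were members and 23 had an IDR summit. The words were chosen after the members' sequences had been read. These counts may therefore be partly built in, and they give no separate support.

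In all, 53 of the 137 members had an IDR summit (38.7%, 30.5 to 47.4%), against 4.16% of the 14238 genes of any type with a pooled summit in the same window. The rule used the pooled signal to list the members but not the IDR threshold, and no test is given since the IDR regions are the top of the same list. In replicate 1 alone, 42 members had a summit among the 441 highest regions, which is 30.7% of all 137 and 42.4% of the 99 members with a replicate 1 summit (32.5 to 52.8%). The share among genes of any type with a replicate 1 summit was 3.75%. In replicate 2 alone, 55 did, which is 40.1% of all 137 and 47.0% of the 117 members with a replicate 2 summit (37.7 to 56.5%), where genes of any type with such a summit gave 4.05%. The members had also passed the pooled list, which the genes of any type had not. Over all snoRNA genes with a summit in the replicate's own list, the counts were 42 of 116 in replicate 1 and 55 of 126 in replicate 2. A summit among the 441 highest of each replicate was found at 38 members. For comparison, 27.3% of tRNA genes, 18.4% of snRNA genes and 2.50% of protein-coding genes with a pooled summit had an IDR summit. Windows grow with gene length, here and for genes of any type, so these shares are not like for like either.

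The plot of ranks shows the members by place in each of the 3 lists.

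**Figure D1:**
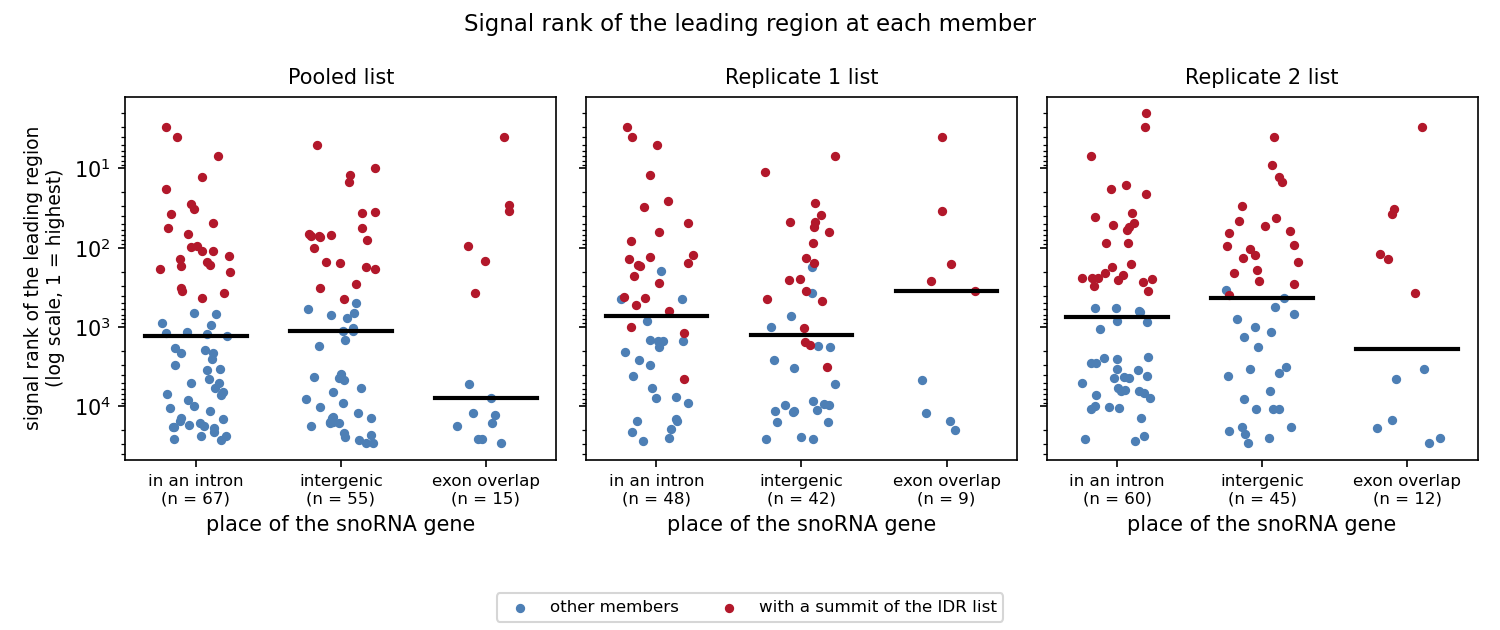
Signal rank (log scale, 1 = highest) of the leading region at each member in the pooled list and in each replicate's list, by the place of the snoRNA gene. Points are genes, red where the gene has a summit of the IDR list, and black bars are medians, which in the pooled list were 1313 for intronic and 1114 for intergenic members.

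ZK994.7 (chrV:8500579-8500645, + strand), inside an intron of *pxn-1*, a peroxidasin gene, had the highest signal of all members, at rank 3 pooled, 3 in replicate 1 and 2 in replicate 2. Its summit lay 9 bases before the 5′ end, within 1 base in either replicate, and it carries the PSE-like word, not the pair. C51F7.3 (chrV:12303708-12303783, + strand), in an intron of *frm-7*, followed at rank 4, 4 and 3. Its summit, 86 bases upstream, is the 1 summit that serves a pair of members, since the neighbouring C51F7.4 (chrV:12303599-12303693) contains it. W03C9.9 (chrII:11960898-11960959, + strand), an intergenic gene with a pair, had ranks 5, 7 and 4, and its summit stood 67 bases upstream in the pooled list and in replicate 2, and 66 in replicate 1. These ranks put the leading intronic and the leading intergenic members side by side in each list.

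T03F7.8 (chrV:11314258-11314332, + strand) lies in an intron of *cutl-18* on the opposite strand, and had ranks 7, 5 and 7. T06C12.16 (chrV:15873855-15873926, - strand), intergenic, had ranks 10, 11 and 15 with neither a pair nor the PSE-like word, although GTTCGA stands before its 5′ end. F38E11.14 (chrIV:9477629-9477699, - strand), in *cng-3*, a gene of the cyclic nucleotide-gated channel family, had ranks 13, 12 and 16. The replicates gave close ranks at all of these. B0334.12 (chrII:11484683-11484752, + strand), antisense in *twk-5*, a potassium channel family gene, had ranks 18, 26 and 21, and is the member of the 12 highest whose summit lay downstream of the gene, at +127 from its 5′ end, +136 in replicate 1 and +104 in replicate 2. F55A11.10 in F55A11.6 had ranks 28, 31 and 41. W01C9.6, which overlaps an exon of *glb-27*, a globin family gene, had ranks 29, 34 and 38. ZK265.10 and Y23H5B.10, both intergenic, complete the 12 with pooled ranks 12 and 15. Their replicate 1 ranks of 47 and 39 stood lower than their replicate 2 ranks of 9 and 13.

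Of the next intronic members, C27H6.5 in *unc-41* ranked 32 pooled, 224 in replicate 1 and 18 in replicate 2. D1046.6 in *cfim-2* ranked 38, 49 and 36. C10C6.8 in *catp-8* ranked 49, 165 and 49, and W08G11.6 in W08G11.3 ranked 57, 82 and 52. None of these 4 held a pair or the PSE-like word, and all had a leading pooled summit upstream of the gene, from -74 to -23. C27H6.5, C10C6.8 and W08G11.6 held an A box alone. Of the next intergenic members, Y75B12B.12 ranked 35, 27 and 53, Y39G10AR.24 ranked 36, 136 and 30, and F32E10.10 ranked 56, 87 and 46. These 3 held a pair. K02C4.8, with ranks 67, 64 and 150, held an A box but no pair, and its summit lay inside the gene at +81.

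A summit in each replicate's list was found at 85 members, and 6 were in neither list. Over the 85 the ranks correlated with a Spearman coefficient of 0.82, and over the 43 intronic and 35 intergenic genes of these with 0.82 and 0.76. These are descriptions across genes that share 2 libraries and that the pooled signal had chosen. Replicate 2 gave the better rank at 52 of the 85, and replicate 1 at 33. Of the 53 members with an IDR summit, 4 had no summit in the replicate 1 list (Y43F8C.22, T26A8.6, ZK546.18 and F19H8.6) and 0 had none in that of replicate 2. By difference in rank, the widest gaps among IDR members with a summit in each list were at Y71D11A.7, with rank 4565 in replicate 1 and 267 in replicate 2, T10B9.11, with 3195 and 394, Y74C9A.6, with 1698 and 103, and Y53F4B.47, with 1530 and 42. Replicate 2 ranked all 4 higher.

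**Figure D2:**
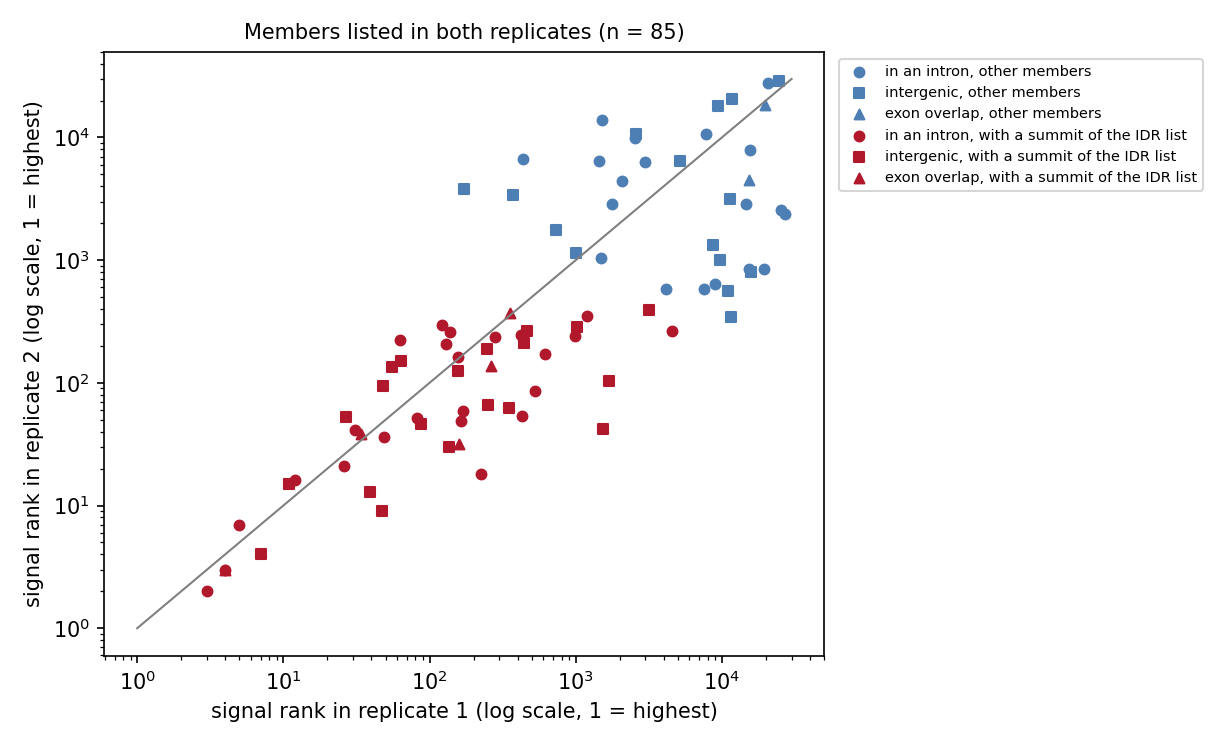
Signal rank of the leading region in replicate 1 (x axis) and replicate 2 (y axis), both log scales with 1 = highest, for the 85 members listed in each replicate. Colour marks a summit of the IDR list, the marker shape the place of the gene, and the grey line equal ranks. Points lie on both sides of the line, 52 with the better rank in replicate 2 and 33 in replicate 1.

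Intronic and intergenic members had nearly the same IDR share. An IDR summit lay at 26 of 67 intronic members (38.8%, 27.1 to 51.5%) and at 21 of 55 intergenic members (38.2%, 25.4 to 52.3%). The shares of all intronic and intergenic members with a summit among the 441 highest regions were 31.3% and 29.1% in replicate 1, and 38.8% and 41.8% in replicate 2. The median rank of intronic members was 724.5 in replicate 1 and 741 in replicate 2, and that of intergenic members was 1276 and 427, so that intronic genes led in replicate 1 and intergenic genes in replicate 2. Among members with an IDR summit the pooled medians were 103.5 and 72. Of the 15 members overlapping a protein-coding exon, 6 had an IDR summit. The share of snoRNA genes that were members was 39.6% of 169 in introns, 44.4% of 124 intergenic and 28.3% of 53 over exons.

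The summit lay before the gene at most members with an IDR summit and inside or past it at most others. The gene body and the stretch past it made up the larger part of the window in which a summit was counted. The part before the gene was the smaller one, and more so at longer genes. IDR members were shorter, with a median length of 80 bases against 131.5 for other members. Whether the shares differed from even placement over the window was not tested. The leading summit, that of the region with the highest signal, was upstream of the 5′ end at 40 of 53 IDR members (75.5%), inside the gene at 11 and past the 3′ end at 2. At the 84 other members it was upstream at 24 (28.6%), inside at 41 and past the 3′ end at 19. The median position was -23 at IDR members and 39 at other members. The replicates repeated this as shares: upstream shares were 69.4% in replicate 1 and 71.7% in replicate 2 for IDR members, and 28.0% and 31.2% for the others. At single genes the position was less sharp. Where each replicate listed a summit, the 2 leading summits lay a median of 22 bases apart at 49 IDR members. At 36 other members the median was 60. The widest gaps were 178 and 272 bases. Some IDR members changed side, such as smy-2, at +57 in replicate 1 and -22 in replicate 2. Members with a pair and an IDR summit had it upstream in 19 of 21 genes, and members with the PSE-like word and an IDR summit in 3 of 9. The 23 IDR members with neither the pair nor the PSE-like word had it upstream in 18 cases. Most of these 23 held an A box or a B box alone. The pooled IDR summits of the PSE-like group were spread from -35 to +161 around the gene, as the map of elements shows.

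By place, the leading summit was upstream at 34 of 67 intronic members (50.7%) and 23 of 55 intergenic members (41.8%). Replicate 1 gave 45.8% and 47.6%, and replicate 2 gave 53.3% and 48.9%, so the order of the places differed between the replicates. Among IDR members the shares were 21 of 26 in introns (80.8%, 66.7% in replicate 1 and 80.8% in replicate 2) and 14 of 21 between genes (66.7%, 70.0% and 61.9%). Among the other members they were 31.7% and 26.5%.

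**Figure D3:**
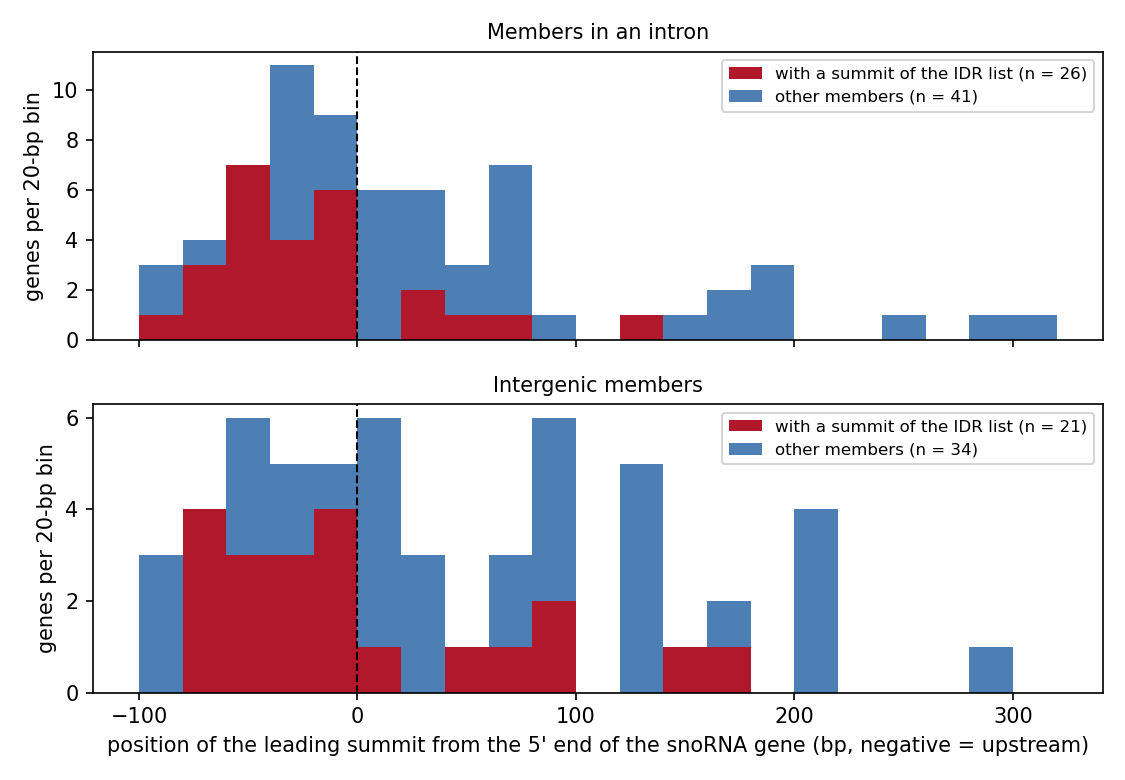
Number of members per 20-bp bin of the position of the leading pooled summit from the 5′ end of the snoRNA gene (bp, negative = upstream), for intronic members (top) and intergenic members (bottom). Red bars are genes with a summit of the IDR list and blue bars the other members, stacked; red gathers left of the dashed 5′ end, with 21 of 26 intronic and 14 of 21 intergenic IDR members there.

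The window from 250 bases before to 50 past the 5′ end held the pair at 21 of 53 IDR members (39.6%), at 4 of 84 other members (4.76%), at 2 of 209 snoRNA genes that were no members (0.957%) and at 71 of 45932 genes of other types apart from tRNA genes (0.155%). On the opposite strand the same window held a pair at none of the 346 snoRNA genes. On the strand of the gene, the A box by itself was in 64.2%, 16.7%, 13.4% and 6.29% of these 4 sets, and the B box GTTCNANNC by itself in 47.2%, 11.9%, 7.66% and 5.02%. The stricter GTTCGANNC, on either strand, was in 30.2%, 4.76%, 3.35% and 2.35%. GTTCGA, searched on both strands and contained in some of these B boxes, was in 35.8%, 14.3%, 11.0% and 10.2%. On the strand of the gene, all 18 IDR members with GTTCGA held it in the 50 bases before the 5′ end, as did 2 other members and 3 of the remaining snoRNA genes. TATAAA, on either strand, did not follow this order, with 28.3%, 22.6%, 24.9% and 37.6%. The A box, the B box GTTCNANNC and their pair were chosen after the members' sequences had been read. Their higher shares at members may therefore be partly built in.

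The PSE-like word was in 17.0% of IDR members (9 of 53), 14.3% of other members (12 of 84), 3.83% of the remaining snoRNA genes (8 of 209) and 0.623% of genes of other types. Its share thus differed little between members with and without an IDR summit, unlike that of the pair. Around the summits themselves, in windows of 201 bp read on either strand, the pair was found at 40.4% of the 52 leading summits of IDR members, 4.76% of those of other members, 3.16% of 285 IDR summits away from tRNA and snoRNA genes and 0.615% of 29442 pooled summits away from them. In the same windows the PSE-like word was found at 7.69% (2.14 to 18.5%), 9.52% (4.2 to 17.9%), 2.46% and 1.45%. The intervals of members with and without an IDR summit overlap widely, as they do in the 5′ window, so their order is not resolved. At the 21 members with the word, the leading summit lay a median of 104 bases past its start, so windows around the summit often miss it. Nothing here tests whether the protein contacts these letters.

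**Figure D4:**
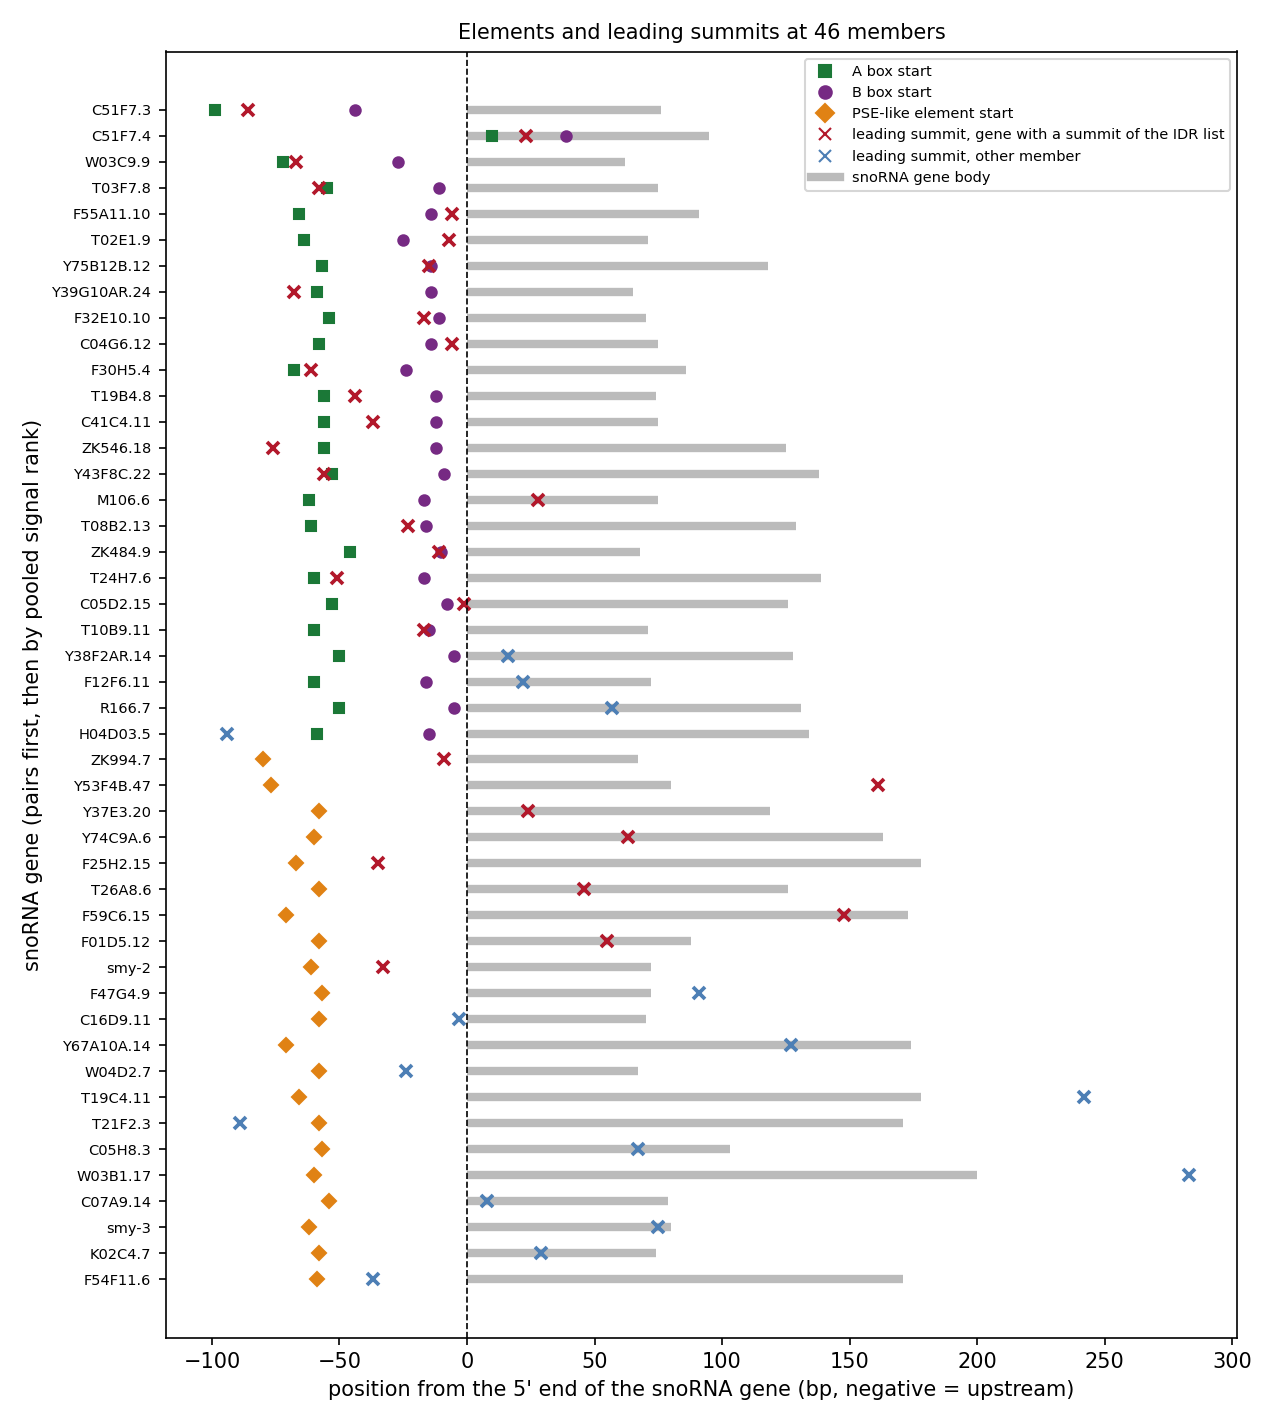
Position (bp from the 5′ end of the snoRNA gene, negative = upstream) of the A box, the B box or the PSE-like word and of the leading summit at the 46 members that hold the pair (top 25) or the word (lower 21), ordered by pooled rank. Grey bars are gene bodies; A boxes line up near -58, B boxes near -14 and PSE-like words near -59, while the summits of the PSE-like group scatter along the gene.

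Intronic and intergenic members carried the elements at like shares. The pair was in 10 of 26 intronic IDR members (38.5%) and 8 of 21 intergenic IDR members (38.1%), and the PSE-like word in 4 (15.4%) and 5 (23.8%). Among members with a pair, an IDR summit lay at 10 of 13 intronic and 8 of 9 intergenic genes. The 4 members with a pair but no IDR summit were Y38F2AR.14 at pooled rank 675, F12F6.11 at 700, R166.7 at 1137 and H04D03.5 at 5071. In replicate 2 the first 3 of these ranked 579, 342 and 638, and in replicate 1 they ranked 4162, 11567 and 9024. These 4 genes were chosen after their values were seen.

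A run of TTTT within the 20 bases past the annotated 3′ end was more frequent at IDR members than at other members, except among those with the PSE-like word and the few with a pair. The following 6 stretches show those bases for members of high rank, on the strand of the gene, with the first run of at least TTTT in capitals.
C51F7.3, chrV:12303784-12303803 (+ strand): cTTTTTTccaaaaagatttc
W03C9.9, chrII:11960960-11960979 (+ strand): TTTTTacacttttaacactt
T03F7.8, chrV:11314333-11314352 (+ strand): taTTTTTcggtttttataca
T06C12.16, chrV:15873835-15873854 (- strand): TTTTTTgcaaattttctttc
C27H6.5, chrV:9970184-9970203 (- strand): TTTTgaaaatttttattttt
Y75B12B.12, chrV:15190956-15190975 (- strand): atttcTTTTTTTTTTctcaa
Such a run was present at 42 of 53 IDR members (79.2%), 33 of 84 other members (39.3%), 70 of 209 remaining snoRNA genes (33.5%) and 34.8% of genes of other types. Among intronic genes it was present at 23 of 26 IDR members (88.5%), 41.5% of other members and 37.3% of those that were no members. At some of these the 20 bases searched reach past the end of the intron. The end lay 17 bases past F38E11.14, 16 past F11A10.9 and 14 past T24H7.6. Whether such a run belongs to the end of the host intron was not tested. Among intergenic genes it was present at 14 of 21 IDR members (66.7%, 43.0 to 85.4%), 41.2% of other members (24.6 to 59.3%) and 27.5% of those that were no members. The intervals of the intergenic IDR members and other members overlap. The pair and the T-run went together at 22 of 25 members with a pair, while the PSE-like word and the T-run did so at 11 of 21. By group, the run was present at 18 of 21 IDR members with a pair and 4 of 4 other members with one. With the PSE-like word it was present at 3 of 9 IDR members (33.3%, 7.49 to 70.1%) and 8 of 12 other members (66.7%, 34.9 to 90.1%), the opposite order with overlapping intervals. With neither the pair nor the PSE-like word it was present at 21 of 23 IDR members (91.3%) and 21 of 68 other members (30.9%). All 10 intronic IDR members with a pair had the T-run.

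**Figure D5:**
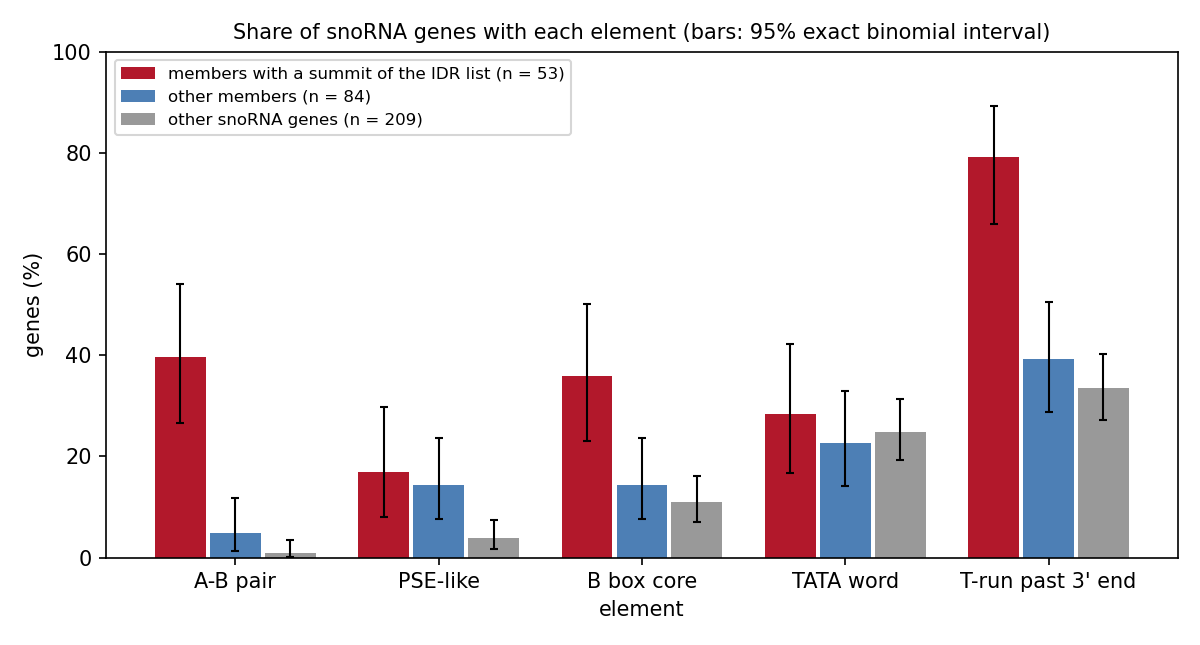
Share of snoRNA genes (%) that hold the A-B pair, the PSE-like word, GTTCGA (B box core), TATAAA or a T-run past the 3′ end, for 53 members with a summit of the IDR list, 84 other members and 209 other snoRNA genes. Error bars are exact 95% binomial intervals; the pair (39.6% against 4.76%) and the T-run (79.2% against 39.3%) set the first group apart, and TATAAA (28.3% against 22.6%) does not.

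IDR members were shorter genes. Their median length was 80 bases, against 131.5 for other members and 133 for the remaining snoRNA genes, and 31 of 53 were under 100 bases (58.5%), against 22.6% and 20.6%. Box C/D snoRNAs are generally the shorter class. By strict words, TGATGA in the first 20 bases with CTGA in the last 15, 5 of 53 IDR members, 4 of 84 other members and 5 of 209 remaining genes read as box C/D. With ACA 3 bases from the 3′ end, 14, 15 and 29 read as box H/ACA. Most genes matched neither, so the class of most members is not given here. The GC content of the 5′ window had medians of 43.7%, 41.7% and 39.3% in the 3 sets, and its part in the motif shares was not tested.

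Intronic members mostly lay on the strand of their host, the orientation in which a snoRNA can be cut out of the host transcript. The share was 53 of 67 members (79.1%), with 21 of 26 at IDR members (80.8%), 32 of 41 at other members (78.0%) and 89 of 102 at intronic snoRNA genes that were no members (87.3%, 79.2 to 93.0%). The 65 host genes held 1 member each except *nol-56*, which encodes a core protein of box C/D particles and hosts 3. Those 3 were K07C5.10, K07C5.18 and K07C5.12, with pooled ranks 5893, 15482 and 23732, none with an IDR summit. Ribosomal protein genes, the classic hosts of snoRNAs, held 0 of 26 intronic IDR members, 5 of 41 other intronic members and 14 of 102 that were no members. The 5 were F54E7.11 in *rps-12* at rank 1230, Y43B11AR.7 in *rps-4* at 2092, R151.12 in *rpl-6* at 18804, K11H12.13 in *rpl-15* at 20772 and B0412.7 in *rps-29* at 26243.

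The introns around IDR members were of moderate length, with a median of 293.5 bases, against 392 for other intronic members and 589 for intronic snoRNA genes that were no members. At least 100 bases of intron preceded the 5′ end at 21 of 26 IDR members (80.8%), 24 of 41 other members (58.5%) and 58 of 102 of the rest (56.9%). The median distance from the intron's start to the gene was 169, 205 and 151.5 bases. From the gene to the intron's end it was 48.5, 74 and 185 bases.

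Some of the summits lay close to other RNA genes, nearly all of them annotated only as ncRNA. No tRNA, snRNA or piRNA gene lay within 100 bp of the leading summit of any of the 137 members, and a miRNA gene did at 1. A gene annotated only as ncRNA did at 31 members (22.6%), 18 of them with an IDR summit (34.0% of 53), and such a summit cannot be assigned to either gene. Among these members are T03F7.8, F38E11.14, F55A11.10, D1046.6, C10C6.8, Y39G10AR.24, C41C4.11 and F01D5.12, which are named above. The start of a protein-coding gene lay within 250 bp of the leading summit at 5 of 53 IDR members (9.43%) and 6 of 84 other members (7.14%), against 11.4% of all 30000 pooled summits. Words of 36 bases that recur elsewhere in the genome were absent from the 201-bp window of the leading summit at 125 members, and filled over 50% of it at none. The authors' −log10 q of the leading region ran from 1.89 to 2.06 at IDR members and from 0.0574 to 1.72, with a median of 0.283, at the others. The region at many other members was therefore weak by the authors' own statistic.

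By chromosome, 31 members lay on I, 29 on II, 19 on III, 23 on IV, 28 on V and 7 on X, of 74, 71, 54, 59, 55 and 33 snoRNA genes. IDR members numbered 14, 15, 4, 8, 11 and 1. At the 100-bp limit, the last members inside were ZK484.11 at 92 bp and rank 21499, H04D03.5 at 94 bp and rank 5071, and B0412.7 at 97 bp and rank 26243. The first genes outside were Y54G2A.74 at 101 bp and rank 15575, F37F2.4 at 104 bp and rank 1239, and K07E1.2 at 108 bp and rank 23284. Of the 8 protein-coding genes of the snoRNA particles found in the gene models, 5 had a pooled summit near the start and 0 an IDR summit. Near the start means at most 1000 bases before it or 200 bases after it, which is not the members' window. By the members' rule, only 2.50% of protein-coding genes with a pooled summit had an IDR summit. The count of 0 is thus no sign that these genes differ from other protein-coding genes. The highest was that of *fib-1*, the methyltransferase of box C/D particles, at rank 1206, near the members' median of 1313. It was followed by *dkc-1*, the pseudouridine synthase of box H/ACA particles, at 3146. The other ranks were 11098, 14957 and 20805.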

How the data were processed

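The labels describe 2 biological replicates of 1 group, with sonicated chromatin. The authors deposited narrowPeak lists on ce11: 30000 regions for each replicate and for the pooled data, as input for the IDR step, and 441 regions past it. The deposited signal is a score of unstated scale, used as a rank within a list, and each deposited region also has a −log10 q-value and a summit position. Which aligner and peak caller made them is not given in the sources used here. Lists on ce10 were left out. Gene models were Ensembl release 115 and the sequence RefSeq, both of WBcel235, the same assembly as ce11, and 0 regions passed a chromosome end.

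Summits were assigned to genes on chromosomes I to V and X within 100 bp with Python 3.11.15, numpy 2.4.6, pandas 2.3.3 and scipy 1.17.1, and drawn with matplotlib 3.10.9. Placement and word searches were tested on simulated data, where all 50 planted summits and 50 planted windows were recovered. Values are counts, medians and exact 95% intervals, with no test, since the members were chosen on the signal. The members and lists were chosen with earlier results of these data known. The A box, the B box GTTCNANNC, the PSE-like word the intron and neighbour distances, and the sequences shown were picked once the data were known. Genes named are the 12 members of highest signal, the next 4 intronic and 4 intergenic, the 3 on each side of the limit, the 4 widest replicate gaps, and members in ribosomal protein genes or sharing a host. Other genes named, those of small counts, were picked for their values.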

Additional observations from a re-analysis of the deposited data

How the results depend on the processing

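The 9 results recomputed gave 58 values under 10 alternatives, of which 47 stayed within the main 95% interval, or for the count of members within 1.5 times of it, and 11 moved. With a window of 0 bp, the summit had to lie inside the gene, so upstream shares became 0.0% by construction. There the members numbered 54, IDR shares were 16.7% of intronic and 26.1% of intergenic members, GTTCGA was near 11.1% of members and the pair at 18.2% of IDR members. Within the 5000 highest pooled regions alone, members numbered 84, IDR shares were 60.5% and 60%, as the weaker members drop out by construction, and GTTCGA was at 31.0%. The intronic and intergenic IDR shares stayed near each other under the second setting.

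Leaving out 1 replicate at a time used the other replicate's list with its 441 highest regions in place of the IDR list. This gave 116 to 126 members, IDR shares of 36.8 to 38.8% (intronic) and 32.7 to 50% (intergenic), upstream shares of 43.9 to 49.3% and 42.9 to 50%, host-strand shares of 80.6 to 84.2%, GTTCGA at 23.0 to 25.9%, the pair at 40 to 40.5% of the highest members and upstream summits at 69.1 to 76.2% of them. With the boxes 30 to 60 bases apart, the pair was at 37.7%, an alternative chosen after seeing the data, as were all those for the pair. No paired analysis was possible because the replicates form 1 group. Read depth is unknown, and annotated 5′ ends may differ from transcription starts.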
